A study of Mus musculus with 8 samples.

Results

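The 2 libraries of mouse embryonic stem (ES) cells that lack Pcgf5 (Pcgf5KO) were compared with the 2 libraries of ES cells that lack Pcgf3 (Pcgf3KO), which are 4 of the 8 samples of the series and were chosen by their labels. All cells were of strain C57BL/6, and the knockouts were made with Cas9, a nuclease guided to a gene by RNA. The cells grew on mitomycin-treated mouse embryonic fibroblasts in medium with serum and leukemia inhibitory factor, so RNA of these feeder cells can be in every library. The labels do not say whether the 2 libraries of a knockout are separate clones or cultures, so p-values measure only the spread between these libraries, which may be technical. Unedited cells (WT, replicate 2) and the double knockout (DKO, 2 libraries, Pcgf3 and Pcgf5 both targeted) are given beside the results for reference. WT replicate 1 was not used here, since its table breaks off early.

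PCGF3 and PCGF5 are closely related RING finger proteins. Each forms a variant Polycomb repressive complex 1 with RING1A or RING1B, and these complexes place ubiquitin on histone H2A. In differentiating female cells the complexes built on PCGF3 and PCGF5 are known for bringing Polycomb marks to the X chromosome coated by Xist RNA, and in much of their work either protein can stand in for the other. The question here is what separates cells that keep PCGF5 from cells that keep PCGF3, with autosomal genes described first.

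The Pcgf3KO libraries held 19878585 and 18073291 counts and the Pcgf5KO libraries 17385443 and 12652616. The filter on low counts left 14408 of 47069 genes, which held 99.90% of the counts. Levels are CPM, the counts of a gene relative to the library total scaled by TMM factors, a log2 fold change is Pcgf5KO over Pcgf3KO with its standard error, and calls are genes whose p in edgeR's quasi-likelihood test, adjusted by Benjamini-Hochberg over all genes tested, was 0.05 or less. Genes are said to rise or be higher where Pcgf5KO exceeded Pcgf3KO, and to fall or be lower in the opposite case. Across genes, log2 CPM correlated at 0.9947 between the Pcgf3KO libraries, 0.9937 between the Pcgf5KO libraries and 0.9903 to 0.9923 between the groups. ES cell genes were abundant in all 4 libraries: Pou5f1 was at 221 and 229 CPM in Pcgf3KO and 255 and 257 in Pcgf5KO, and Esrrb was at 438, 444, 434 and 451.

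The targeted genes were each lower in their own knockout. Pcgf3 was at 65.1 and 59.6 CPM in Pcgf3KO and 90.6 and 92.6 in Pcgf5KO (log2 fold change 0.55 ± 0.06, edgeR adjusted p = 3.44e-08), with 109 in WT and 86.9 and 66.4 in DKO. Pcgf5 was at 17.0 and 17.2 CPM in Pcgf3KO and 12.1 and 8.91 in Pcgf5KO (−0.68 ± 0.12, edgeR adjusted p = 0.000264), with 20.5 in WT and 13.6 and 13.7 in DKO. The libraries of the groups did not overlap at either gene, as at 55.3% of all genes tested. Both transcripts remained in the cells meant to lack them. With 7 libraries neither difference was called (edgeR adjusted p = 0.177 and 0.216), and the labels do not say which part of each gene Cas9 cut. The paralogs Pcgf1, Pcgf2 and Pcgf6, which build other forms of the complex, did not pass the test, with log2 fold changes of −0.00 ± 0.15, 0.08 ± 0.05 and −0.11 ± 0.07. Bmi1, another paralog, was at 4.07 and 4.68 CPM in Pcgf3KO and 2.79 and 3.34 in Pcgf5KO (−0.53 ± 0.21, edgeR adjusted p = 0.0931) and was not called.

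Of the 14408 genes tested, 1874 (13.0%) differed between the knockouts, 907 (6.30%) higher and 967 (6.71%) lower in Pcgf5KO. Among 13866 autosomal genes 12.9% were called, 879 higher (6.34%) and 910 lower (6.56%). Most differences were small: 89.2% of the higher and 87.8% of the lower calls were under 1.5-fold, and 30 autosomal genes were higher and 35 lower by 2-fold or more. The median log2 fold change of all genes tested was −0.0012.

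The size of the called set depended on which libraries set the spread. With WT replicate 2 and the DKO libraries in the same fit, edgeR called 22 of 15669 genes (0.140%), and all 22 were also called from the 4 libraries. The DKO libraries differed from each other by a median absolute log2 difference of 0.224 per gene, against 0.0991 in Pcgf3KO and 0.0946 in Pcgf5KO, and the common biological coefficient of variation was 9.07% with 7 libraries and 3.81% with 4. All 1874 called genes had the same sign in the 7-library fit. That fit takes the difference from the same 4 libraries, so the same sign was to be found in any case. DESeq2 gave no adjusted p to 338 of the 1874. DESeq2, run on the 4 libraries, called 751 genes, and 443 genes were called whichever of the 4 libraries was left out. The libraries of the groups did not overlap in 55.3% of all genes tested and in all called genes but 6 lower ones. 3 of those are protein-coding, chosen after their values were seen: Sap30, Jund and Rab5if were at 67.2, 31.9 and 22.9 CPM in Pcgf3KO replicate 1 and no higher than 39.9, 16.7 and 8.27 in the other 3 libraries.

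**Figure D1:**
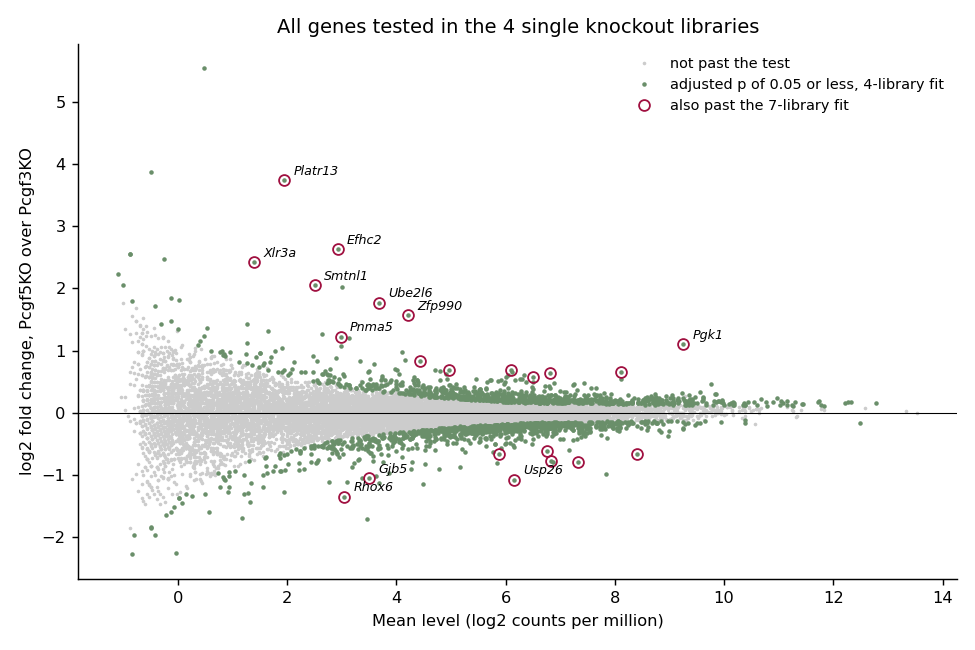
Log2 fold change of Pcgf5KO over Pcgf3KO (vertical axis) against mean level in log2 CPM (horizontal axis) for the 14408 genes tested. Green points are the 1874 called genes, and red rings mark the 22 that were also called with 7 libraries, among them Platr13, Smtnl1, Ube2l6 and Pgk1 above 0 and Rhox6, Usp26 and Gjb5 below it.

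The 22 genes called in both fits were singled out after their values were seen. Of these, 9 were autosomal and higher in Pcgf5KO (Platr13, Smtnl1, Ube2l6, Zfp990, Rspry1, Vim, Upp1, Lefty2 and Alpl), 5 were autosomal and lower (Tfcp2l1, Gjb5, Slc2a3, Ranbp17 and Pecam1), and 8 were X-linked. The highest autosomal fold was that of Platr13, a long noncoding RNA of a set named for its association with pluripotency (chr11:41218837-41221096, plus strand, mm10). It was at 0.497 and 0.661 CPM in Pcgf3KO and 6.86 and 8.83 in Pcgf5KO, a 13.3-fold rise (log2 fold change 3.74 ± 0.26, edgeR adjusted p = 4.18e-12). Platr13 was as high in DKO (8.88 and 8.64) as in Pcgf5KO, while WT was at 1.24, nearer to Pcgf3KO.

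Next to each other on chromosome 2 lie Smtnl1 and Ube2l6, the genes whose autosomal rises came next in size among the 22. Smtnl1, which encodes a smoothelin-like protein of muscle (chr2:84811176-84822652, minus strand), was at 2.19 and 2.48 CPM in Pcgf3KO and 9.19 and 10.2 in Pcgf5KO (2.05 ± 0.18, edgeR adjusted p = 7.49e-10). Ube2l6, the conjugating enzyme for the ubiquitin-like protein ISG15 (chr2:84798828-84810335, plus strand), was at 5.81 and 6.45 CPM in Pcgf3KO and 20.9 and 21.0 in Pcgf5KO (1.77 ± 0.12, edgeR adjusted p = 1.94e-12). The 2 knockouts were far apart at both genes, and DKO was near Pcgf5KO, with 8.72 and 7.86 for Smtnl1 and 15 and 17.2 for Ube2l6. WT was below both knockouts for Smtnl1 (1.13) and just above Pcgf3KO for Ube2l6 (7.22).

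The genes around the pair were examined after its values were seen. Of 17 genes tested within 300 kb of the start of Smtnl1, 5 were higher in Pcgf5KO and the others were not called. Over all genes tested 6.30% were called higher. The 5 include Smtnl1 and Ube2l6, whose own calls led to the choice of this region. Serping1, the complement C1 inhibitor gene, was at 19.8 and 20.8 CPM in Pcgf3KO and 34.1 and 30.8 in Pcgf5KO (0.68 ± 0.09, edgeR adjusted p = 1.5e-06). Slc43a1, a transporter of large neutral amino acids, was at 12.5 and 11.6 and at 20.5 and 18.5 (0.70 ± 0.11, edgeR adjusted p = 3.72e-05). Selenoh, a selenoprotein gene, had the smallest of the 5 rises (0.33 ± 0.06, edgeR adjusted p = 0.000239). The rise was not an unbroken block: Timm10, a mitochondrial import gene between Smtnl1 and Slc43a1, had 0.28 ± 0.11 and was not called (edgeR adjusted p = 0.0963), and Clp1, Zdhhc5, Med19 and Tmx2 between Serping1 and Selenoh had values from −0.02 to 0.03.

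**Figure D2:**
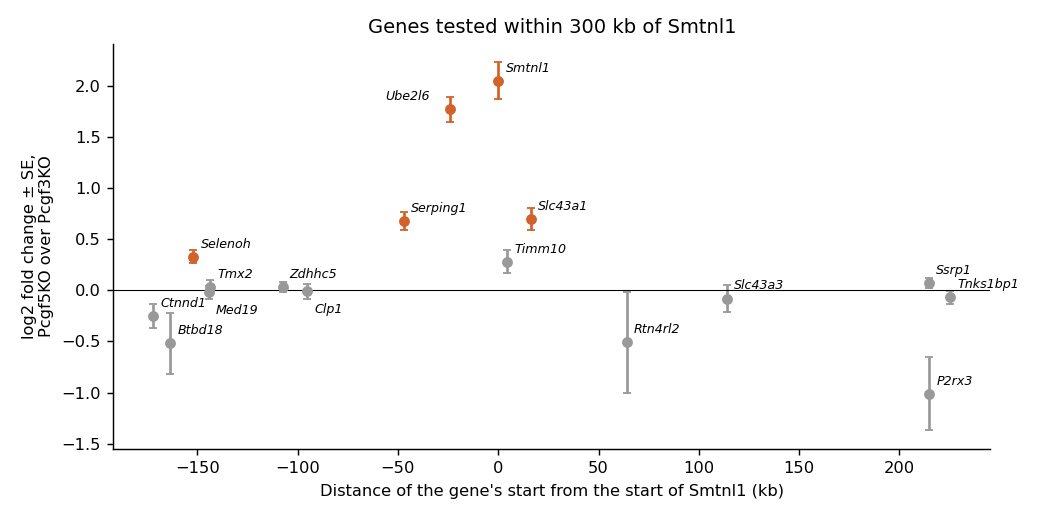
Log2 fold change of Pcgf5KO over Pcgf3KO with its standard error (vertical axis) for the 17 genes tested within 300 kb of Smtnl1, by the distance of each gene's start from that of Smtnl1 in kb (horizontal axis). The 5 called genes are orange; Smtnl1 at 2.05 and Ube2l6 at 1.77 stand above Serping1, Slc43a1 and Selenoh, and the uncalled genes are grey.

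Promoters of 3 members of this cluster are shown because Polycomb complexes are known to act largely at CpG-rich promoters. Serping1 had no RefSeq window, and Selenoh was not looked up. Each window runs from 250 bases before to 50 after the start (RefSeq, GRCm38.p6, 5′ to 3′ on the gene's own strand), with every CpG in capitals. Smtnl1 spans chr2:84822603-84822902 on the minus strand, Ube2l6 chr2:84798578-84798877 and Slc43a1 chr2:84840073-84840372, both on the plus strand.
Smtnl1: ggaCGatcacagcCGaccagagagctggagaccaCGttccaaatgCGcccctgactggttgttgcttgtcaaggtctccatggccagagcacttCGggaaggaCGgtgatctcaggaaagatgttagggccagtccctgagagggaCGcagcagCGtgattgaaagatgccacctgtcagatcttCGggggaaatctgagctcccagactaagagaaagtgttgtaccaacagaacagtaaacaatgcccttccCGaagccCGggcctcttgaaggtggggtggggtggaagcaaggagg
Ube2l6: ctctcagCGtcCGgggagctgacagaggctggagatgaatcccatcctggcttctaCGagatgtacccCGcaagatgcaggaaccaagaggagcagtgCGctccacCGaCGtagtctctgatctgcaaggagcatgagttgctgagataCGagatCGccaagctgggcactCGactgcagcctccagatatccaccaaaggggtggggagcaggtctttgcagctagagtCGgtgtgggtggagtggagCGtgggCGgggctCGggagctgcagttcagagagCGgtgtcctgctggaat
Slc43a1: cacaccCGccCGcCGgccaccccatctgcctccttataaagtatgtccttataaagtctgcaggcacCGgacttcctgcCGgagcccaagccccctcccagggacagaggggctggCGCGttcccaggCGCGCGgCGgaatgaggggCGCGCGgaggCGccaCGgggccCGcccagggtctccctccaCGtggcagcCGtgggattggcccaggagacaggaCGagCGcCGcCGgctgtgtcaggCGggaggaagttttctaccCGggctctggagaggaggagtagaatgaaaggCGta
The Smtnl1 window holds 11 CpG, a number reached by 41.4% of the 32851 windows of this length in the table. The Ube2l6 window holds 15 (reached by 34.6%) and the Slc43a1 window 26 (reached by 16.9%), the median of all windows is 7, and 94.6% hold at least 1. The gene with the largest rise had the fewest CpG of the 3. These 3 genes were picked after their values were seen, and a link between CpG number and rise was not tested.

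Among the other autosomal genes called in both fits, Zfp990, a zinc finger gene, was at 10.1 and 9.2 CPM in Pcgf3KO and 29.7 and 27.6 in Pcgf5KO (1.57 ± 0.10, edgeR adjusted p = 9.59e-13), with 16.4 in WT between the groups. Rspry1, a gene with RING and SPRY domains, was at 16.6 and 14.8 in Pcgf3KO and 29.1 and 26.9 in Pcgf5KO (0.84 ± 0.10, edgeR adjusted p = 2.08e-07). For Rspry1 it was Pcgf3KO that stood apart from the rest, since WT was at 27.7 and DKO at 22.6 and 23.8. Upp1, uridine phosphorylase, was at 212 and 218 CPM in Pcgf3KO and 348 and 328 in Pcgf5KO (0.65 ± 0.05, edgeR adjusted p = 1.15e-11). Alpl, the alkaline phosphatase used as a stain for ES cells, was at 72.1 and 74.1 and at 107 and 112 (0.58 ± 0.05, edgeR adjusted p = 2.3e-09). Upp1 and Alpl were both close to Pcgf5KO in DKO (312 and 308, 110 and 120), whereas WT was below both knockouts for Upp1 (146) and within their gap for Alpl (75.4).

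Lefty2, a secreted antagonist of Nodal, was at 91.1 and 86.8 CPM in Pcgf3KO and 133 and 145 in Pcgf5KO (0.64 ± 0.05, edgeR adjusted p = 2.94e-10), with WT and DKO higher still at 186, 190 and 179. Lefty1 near it, another Nodal antagonist, was at 68.5 and 70.6 and at 94.0 and 102 (0.49 ± 0.06, edgeR adjusted p = 1.8e-07), but was called with 4 libraries only. Both Lefty genes were thus higher in both Pcgf5KO libraries than in either Pcgf3KO library, as were all genes called higher. Vim, the intermediate filament gene vimentin, which ES cells and fibroblasts both express, was at 52.2 and 53.8 CPM in Pcgf3KO and 86.2 and 84.7 in Pcgf5KO (0.69 ± 0.06, edgeR adjusted p = 3.05e-10), with 94.5 in WT and 84.4 and 85.3 in DKO. The fibroblast markers that moved with it are given below, and in bulk RNA fewer cells of a type and less RNA per cell cannot be told apart.

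Among autosomal genes 5 were lower in Pcgf5KO in both fits. Tfcp2l1, a transcription factor of naive pluripotency, was at 140 and 144 CPM in Pcgf3KO and 82.8 and 82.5 in Pcgf5KO, 1.72-fold lower (−0.78 ± 0.05, edgeR adjusted p = 9.59e-13). WT lay between the groups at 102, and DKO was above both at 183 and 168. Slc2a3, the high-affinity glucose transporter GLUT3, was at 411 and 420 CPM in Pcgf3KO and 269 and 258 in Pcgf5KO (−0.66 ± 0.05, edgeR adjusted p = 3.86e-12), with WT at 487. Gjb5, a connexin gene of trophoblast and skin, was at 13.9 and 15.4 and at 7.33 and 6.76 (−1.05 ± 0.13, edgeR adjusted p = 7.59e-07). Gjb5 in DKO (15.5 and 17.8) resembled Pcgf3KO and in WT (5.19) was below both knockouts. Ranbp17, a nuclear transport receptor gene, was at 71.5 and 70.4 and at 44.9 and 44.7 (−0.66 ± 0.06, edgeR adjusted p = 3.55e-09). Pecam1, an adhesion molecule of ES cells and endothelium, was at 133 and 127 and at 85.6 and 83.7 (−0.62 ± 0.05, edgeR adjusted p = 3.05e-10). Both were lower again in WT, at 32.8 and 53.3, and Ranbp17 overlaps a gene on the other strand.

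The naming rule took the 15 largest autosomal rises and falls among called genes whose log2 CPM averaged at least 2. Of the rises beyond those above, Platr15, another pluripotency-associated noncoding RNA, was at 4.02 and 3.47 CPM in Pcgf3KO and 9.71 and 8.19 in Pcgf5KO (1.26 ± 0.17, edgeR adjusted p = 2.39e-06). Dpp4, a cell surface peptidase, was at 5.96 and 4.90 and at 11.9 and 13.4 (1.20 ± 0.14, edgeR adjusted p = 3.41e-07). Kdr, the VEGF receptor of early mesoderm and endothelium, was at 12.2 and 11.3 and at 21.0 and 25.8 (0.98 ± 0.11, edgeR adjusted p = 1.8e-07). WT levels of Dpp4 (12.5) and Kdr (30.2) were within and above those of Pcgf5KO. In DKO Dpp4 was at 11.5 and 7.47, above Pcgf3KO, and Kdr at 8.72 and 12.5, about as low as Pcgf3KO. Bcl11a, a zinc finger repressor, was at 4.52 and 3.25 CPM in Pcgf3KO and 7.62 and 7.08 in Pcgf5KO (0.91 ± 0.18, edgeR adjusted p = 0.000673). Notum, an enzyme that inactivates Wnt ligands, was at 4.37 and 4.08 and at 7.09 and 8.03 (0.83 ± 0.17, edgeR adjusted p = 0.00105). For these last genes WT was below both knockouts, at 2.48 and 3.10. The remaining rises, Exoc3l2, Epp13, Pgk1-rs7, Megf11, Zfp229 and Vrtn, had log2 fold changes of 0.71 to 1.08. Pgk1-rs7 is a copy of Pgk1 and can share its reads, and Notum has an antisense gene whose reads cannot be told from its own.

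At that level the largest autosomal fall was that of Sap18b, a near-identical copy of Sap18, so the source of its reads is uncertain. It was at 15.2 and 16.3 CPM in Pcgf3KO and 5.17 and 4.37 in Pcgf5KO (−1.71 ± 0.14, edgeR adjusted p = 1.53e-10), and the DKO libraries split, at 2.38 and 18.2. Tfap2c, the AP-2 gamma factor of trophoblast and germ cells, was at 45.0 and 45.4 and at 25.9 and 22.8 (−0.88 ± 0.08, edgeR adjusted p = 1.3e-09). Wnt7b, a Wnt ligand gene, was at 23.7 and 24.7 and at 14.1 and 11.5 (−0.91 ± 0.11, edgeR adjusted p = 2.92e-07). In each of the 3 the lower Pcgf3KO library was above the higher Pcgf5KO library, which the naming rule required. S100a6, a calcium-binding protein gene, was at 70.0 and 73.4 CPM in Pcgf3KO and 39.3 and 42.9 in Pcgf5KO (−0.81 ± 0.07, edgeR adjusted p = 1.53e-10). Lemd1, a LEM domain gene of testis, was at 18.9 and 18.0 and at 9.19 and 9.70 (−0.97 ± 0.11, edgeR adjusted p = 3.24e-07). WT was close to Pcgf5KO for S100a6 (41.4) and below both for Lemd1 (2.71), which overlaps a gene on the other strand. Arl14epl, Fam167a, Grik3, Nppb, Pygl, Hspa4l, Htra1, Klk10 and Glis3 also fell, with log2 fold changes of −1.13 to −0.81. Glis3 was not called without Pcgf3KO replicate 1 or Pcgf5KO replicate 1 (edgeR adjusted p up to 0.0949), and Htra1 lies in a region annotated to overlap Fgfr2.

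**Figure D3:**
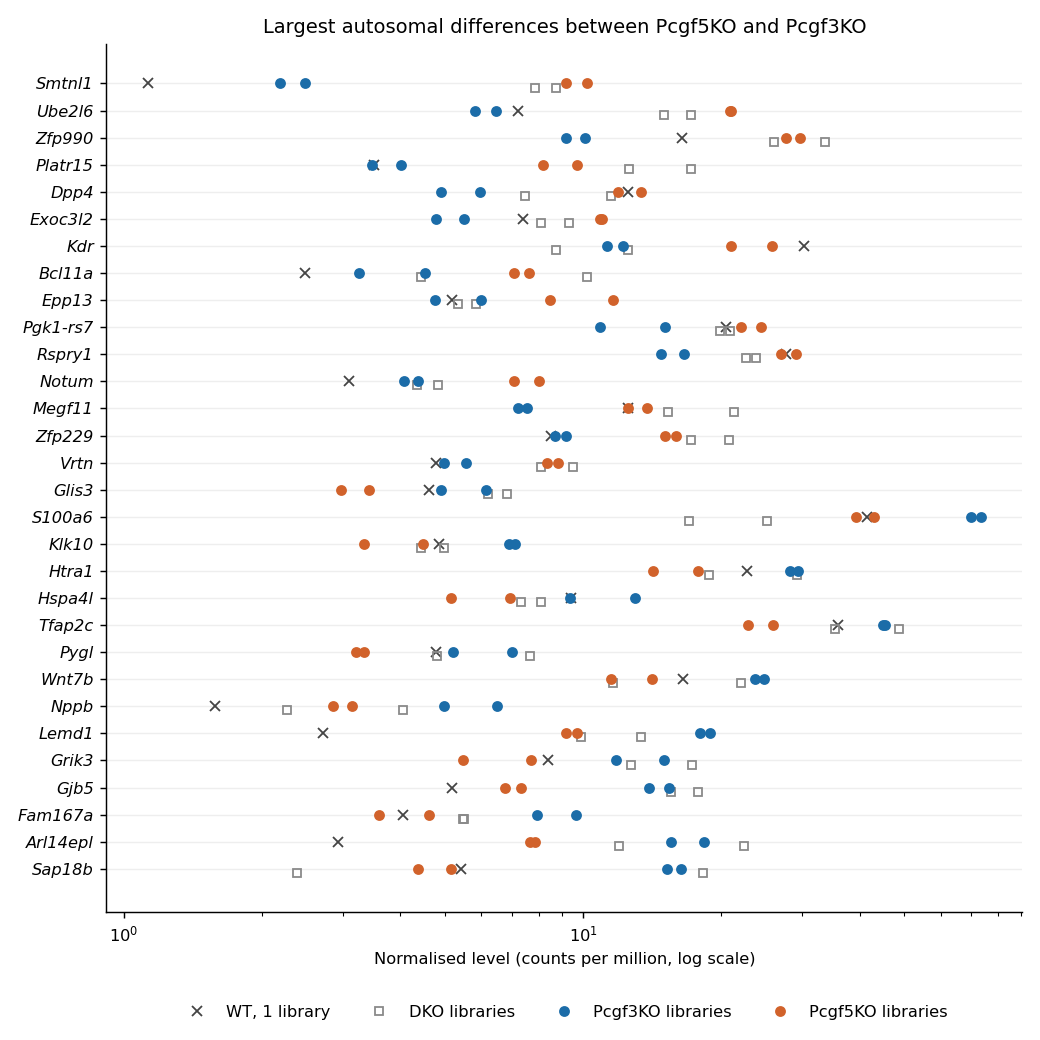
Normalised level in CPM on a log scale (horizontal axis) of the 15 autosomal genes with the largest rises and the 15 with the largest falls under the naming rule. Blue points are the Pcgf3KO libraries, orange points the Pcgf5KO libraries, crosses WT replicate 2 and open squares the DKO libraries; the blue and orange points do not overlap for any gene shown, a condition of the rule.

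The gene lists that follow are described by their counts and medians, beside 13.0% called and a median log2 fold change of −0.0012 over all genes tested. Pluripotency genes moved in both directions. Of 14 naive pluripotency genes tested, Tfcp2l1, Tcl1 and Klf5 fell, Nr5a2 rose and the other 10 were not called, with a median log2 fold change of −0.116. Nr5a2, an orphan nuclear receptor that activates Pou5f1, was at 50.4 and 48.9 CPM in Pcgf3KO and 72.9 and 69.1 in Pcgf5KO (0.52 ± 0.06, edgeR adjusted p = 3.88e-07). Tcl1, a coactivator of Akt, was at 15.6 and 15.4 and at 10.1 and 9.38 (−0.67 ± 0.12, edgeR adjusted p = 0.000199). Klf5, a Krüppel-like factor, was at 68.9 and 47.8 and at 39.9 and 41.2 (−0.53 ± 0.10, edgeR adjusted p = 0.000329), but DESeq2 did not call it (adjusted p = 0.201). Esrrb (0.00 ± 0.04), Nanog (−0.11 ± 0.06) and Zfp42 (−0.15 ± 0.05) were among those not called.

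Of 14 core pluripotency genes 6 rose (Zfp296, Tdgf1, Trim28, Pou5f1, Zscan10 and Lin28a) and Sox2 fell, with a median of 0.081. Tdgf1, the Nodal co-receptor Cripto, was at 677 and 664 CPM in Pcgf3KO and 850 and 835 in Pcgf5KO (0.33 ± 0.04, edgeR adjusted p = 8.12e-07). The differences of Pou5f1 (0.19 ± 0.05), Sox2 (−0.14 ± 0.04) and Lin28a (0.14 ± 0.04) were small, and none of the 3 was called with either Pcgf5KO library left out. In each of those fits 3 of the 14 genes were called higher.

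Among 12 primed epiblast genes, Pim2, Zic2 and Dnmt3a rose and Cdh2 fell, with a median of 0.237, and Cdh2 was not called without Pcgf5KO replicate 2 (edgeR adjusted p = 0.0523). Zic2, a zinc finger factor, was at 28.2 and 27.9 CPM in Pcgf3KO and 36.7 and 36.0 in Pcgf5KO (0.38 ± 0.08, edgeR adjusted p = 0.00126). Dnmt3a, a de novo DNA methyltransferase, was at 197 and 199 and at 235 and 261 (0.32 ± 0.05, edgeR adjusted p = 4.65e-05). Of 10 neuroectoderm genes Olig2, Map2, Nes and Tubb3 rose and the other 6 were not called, with a median of 0.266. Olig2, a basic helix-loop-helix factor of oligodendrocyte and motor neuron precursors, was at 43.7 and 43.0 CPM in Pcgf3KO and 57.3 and 56.8 in Pcgf5KO (0.40 ± 0.07, edgeR adjusted p = 8.92e-05). All 4 were higher still in WT (82.4 for Olig2, 38.0 for Map2, 37.9 for Nes and 223 for Tubb3), and without Pcgf5KO replicate 1 edgeR called 1 of the 10 higher.

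Trophectoderm genes were lower in Pcgf5KO more often than higher. Of 14 tested, 9 fell (Elf5, Gjb5, Tfap2c, Krt7, Hand1, Tead4, Krt19 and Krt8 among them), the other 5 also had log2 fold changes below 0, and the median was −0.532 against −0.0012 for all genes. Such factors and keratins mark the outer layer of the blastocyst and its placental descendants. Elf5, a regulator of trophoblast stem cells, was at 1.69 and 1.21 CPM in Pcgf3KO and 0.523 and 0.636 in Pcgf5KO (−1.34 ± 0.41, edgeR adjusted p = 0.0282). Tead4, which starts the trophectoderm programme, was at 38.7 and 39.3 and at 28.4 and 27.5 (−0.48 ± 0.08, edgeR adjusted p = 7.11e-05). Krt8, a keratin of simple epithelium, was at 176 and 195 and at 150 and 152 (−0.30 ± 0.05, edgeR adjusted p = 0.000233). The Pcgf5KO libraries were below both Pcgf3KO libraries at all 3, as at nearly all genes called lower. Gjb5 alone of the 9 was called with 7 libraries. Elf5 was not called without Pcgf3KO replicate 1 or either Pcgf5KO library (edgeR adjusted p up to 0.288). Hand1 was not called without Pcgf3KO replicate 2 or Pcgf5KO replicate 2 (edgeR adjusted p up to 0.211), and it had 45.3 CPM in WT and 16 and 45.9 in DKO, far from the 5.09 to 10.7 of the single knockouts.

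Keratin and desmosome genes, some of them also in the trophectoderm list, had 7 falls and 1 rise among 15 tested (median −0.109). Dsp, which encodes the desmosome linker desmoplakin, was at 21.1 and 24.7 CPM in Pcgf3KO and 15.7 and 15.3 in Pcgf5KO (−0.56 ± 0.10, edgeR adjusted p = 0.000366), with 69.4 in WT. Jup, Pkp3 and Krt18 were not called, and 4 of the 15 were called lower without Pcgf3KO replicate 1 or without Pcgf5KO replicate 2, omissions that also ended the call of the rise. The annexin, S100 and galectin genes, which encode calcium- and sugar-binding proteins, had 7 falls among 17 (median −0.200), and the other 10 were not called. Anxa3 was at 27.8 and 26.7 CPM in Pcgf3KO and 18.8 and 16.9 in Pcgf5KO (−0.60 ± 0.09, edgeR adjusted p = 3.72e-05), and Anxa2 at 130 and 139 and at 110 and 104 (−0.32 ± 0.05, edgeR adjusted p = 7.37e-05). In the keratin and desmosome list and in this one, the summed level was lower in both DKO libraries than in any single knockout.

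Of 23 germline genes tested, Smc1b, Stag3, Sycp1, Tex14, Ddx4 and Piwil2 fell, the other 17 were not called, and the median was −0.397. Smc1b, a cohesin subunit of meiosis, was at 4.47 and 2.70 CPM in Pcgf3KO and 1.92 and 1.67 in Pcgf5KO (edgeR adjusted p = 0.0112), and was not called without Pcgf3KO replicate 1 (0.341). Stag3, another, was at 13.2 and 13.6 and at 8.49 and 8.75 (−0.64 ± 0.12, edgeR adjusted p = 0.000698). Ddx4, the germ cell helicase Vasa, was at 42.5 and 38.9 and at 31.1 and 30.1 (−0.41 ± 0.08, edgeR adjusted p = 0.000436), and Piwil2, a protein of the piRNA pathway, at 53.5 and 56.7 and at 41.5 and 42.3 (−0.40 ± 0.07, edgeR adjusted p = 0.00013). The germ cell regulators Dazl, Sycp3 and Mael had values below 0 without a call. With 7 libraries Stag3, Ddx4 and Piwil2 missed the call (edgeR adjusted p = 0.187, 0.265 and 0.45). None of the genes of the list of the 2-cell-like state passed the filter on low counts.

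In the primitive streak and mesoderm list, Kdr and Wnt3 rose and Eomes and Hand1 fell among 12 tested (median 0.137). Wnt3 was barely detected, at 0 and 0.275 CPM in Pcgf3KO and 0.64 and 1.03 in Pcgf5KO, and was not called without Pcgf3KO replicate 1 or Pcgf5KO replicate 2 (edgeR adjusted p up to 0.26). Eomes, a T-box factor of streak, endoderm and trophoblast, was at 8.94 and 8.21 CPM in Pcgf3KO and 6.51 and 5.65 in Pcgf5KO (−0.49 ± 0.15, edgeR adjusted p = 0.0282), and the same omissions ended its call (up to 0.196). Among 10 endoderm genes Dab2 rose and Sparc fell, with a median of 0.001. Each lost its call in 3 of the 4 fits that left out 1 library: Dab2 kept it without Pcgf3KO replicate 2 (edgeR adjusted p up to 0.172 in the others) and Sparc without Pcgf3KO replicate 1 (up to 0.323).

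Of 24 Nodal, TGF-beta and BMP genes 5 rose, 3 fell and 16 were not called, with a median of 0.092. Nodal, a ligand, was at 48.3 and 58.2 CPM in Pcgf3KO and 73.3 and 76.7 in Pcgf5KO (0.49 ± 0.07, edgeR adjusted p = 5.75e-06), and Tdgf1, Lefty1 and Lefty2 have been given above. These 4 rose, and so did Grem1, a BMP antagonist with 0.397 and 0.22 CPM in Pcgf3KO and 1.05 and 1.03 in Pcgf5KO, which lost its call whichever library was left out (edgeR adjusted p up to 0.182). Bmp4, Id2 and Smad7 fell, Smad7 without a call when Pcgf3KO replicate 1 or Pcgf5KO replicate 1 was left out (up to 0.345). Id2, an inhibitor of differentiation induced by BMP, was at 101 and 108 CPM in Pcgf3KO and 80.5 and 73.8 in Pcgf5KO (−0.43 ± 0.06, edgeR adjusted p = 2.07e-06). Lefty2 alone of the 8 was called with 7 libraries.

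Of 14 Wnt target genes Notum, Ccnd1 and Myc rose and the other 11, among them Axin2, Sp5 and Lef1, were not called (median 0.135). Ccnd1, cyclin D1, was at 121 and 135 CPM in Pcgf3KO and 178 and 173 in Pcgf5KO (0.46 ± 0.05, edgeR adjusted p = 3.24e-07), with a gene on the other strand that overlaps it. Myc was at 91.3 and 92.4 and at 114 and 120 (0.35 ± 0.05, edgeR adjusted p = 1.65e-05). Both Pcgf5KO libraries were above both Pcgf3KO libraries, as at all genes called higher. Of 20 genes of FGF signalling and ERK feedback, the receptor Fgfr2 and the inhibitors Dusp4, Dusp5 and Spry2 fell and Etv5 rose (median −0.099). Etv5, an ETS factor downstream of ERK, was at 718 in both Pcgf3KO libraries and at 835 and 858 CPM in Pcgf5KO (0.24 ± 0.04, edgeR adjusted p = 0.000142). None of the 4 falls was called without Pcgf5KO replicate 1 (edgeR adjusted p = 0.119 for Dusp4, 0.0879 for Dusp5, 0.127 for Fgfr2 and 0.178 for Spry2). Among 32 axon guidance genes 4 rose and 1 fell (median 0.129), with 2 rises without Pcgf5KO replicate 2. Ntn1, the netrin-1 ligand, was at 64.5 and 64.6 CPM in Pcgf3KO and 92.6 and 95.6 in Pcgf5KO (0.54 ± 0.06, edgeR adjusted p = 1.94e-08). Nrp2, a semaphorin receptor, was at 147 and 145 and at 86.1 and 82.8 (−0.79 ± 0.05, edgeR adjusted p = 9.59e-13), and missed the call with 7 libraries (edgeR adjusted p = 0.0512).

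**Figure D4:**
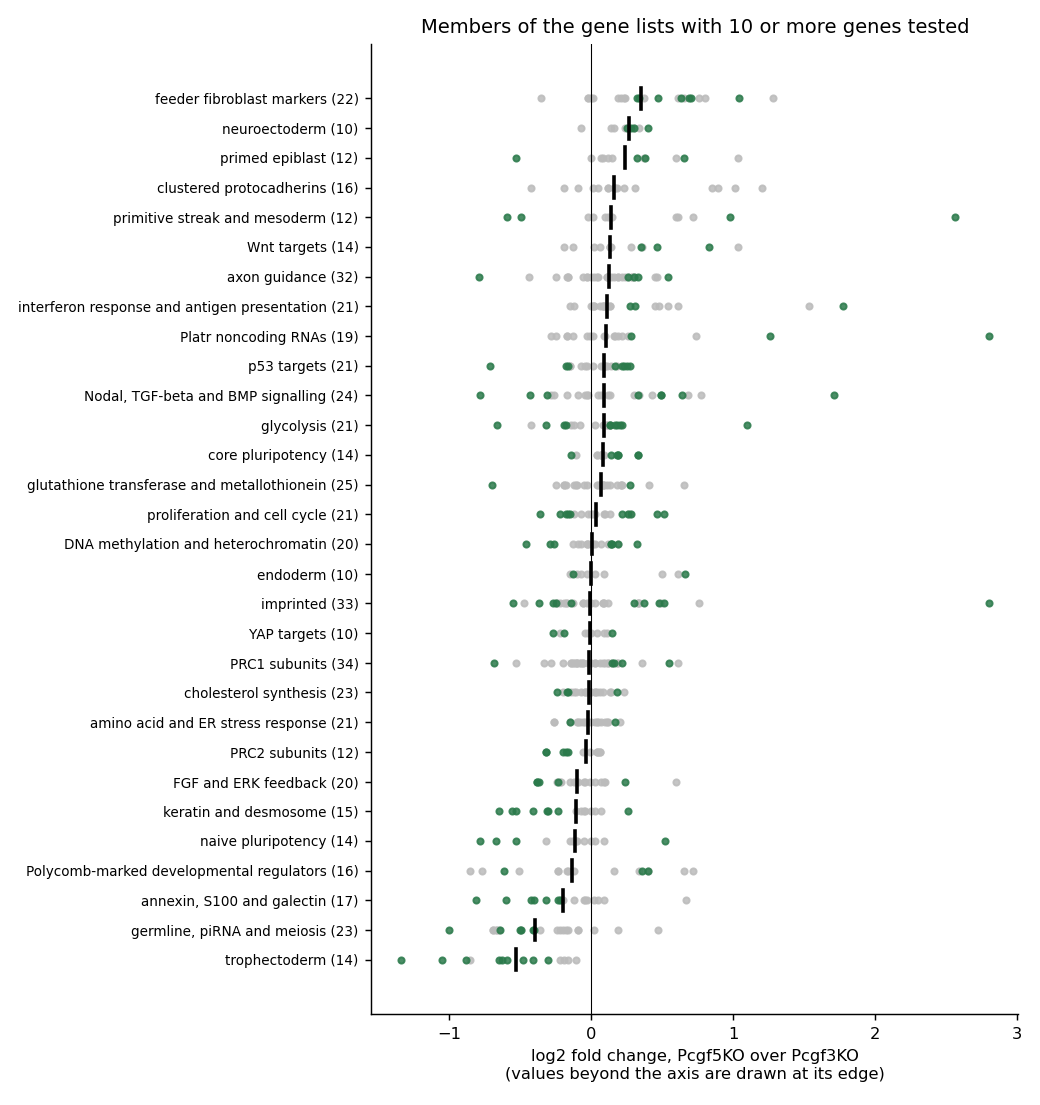
Log2 fold change of Pcgf5KO over Pcgf3KO (horizontal axis) for the members tested of each gene list with 10 or more genes tested, with that number in brackets after each list's name. Green points are called members, grey points are not called, and black bars are medians, from −0.532 for trophectoderm to 0.354 for feeder fibroblast markers.

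Besides Pcgf3 and Pcgf5, the called differences at subunits of the Polycomb complexes were small in size. Of 34 subunits of Polycomb repressive complex 1, Pcgf3, Csnk2b, Wdr5 and L3mbtl2 rose and Pcgf5 fell, with a median of −0.012. Csnk2b, a casein kinase 2 subunit found in the PCGF3 and PCGF5 complexes, was at 85.4 and 84.3 CPM in Pcgf3KO and 97.0 and 101 in Pcgf5KO (0.22 ± 0.05, edgeR adjusted p = 0.0046), and was not called without Pcgf5KO replicate 2 (0.0959). Wdr5 and L3mbtl2 were not called without that library, without Pcgf5KO replicate 1 or without Pcgf3KO replicate 1 (edgeR adjusted p up to 0.263 and 0.288). The falls numbered 6 without Pcgf3KO replicate 2. Of 12 subunits of complex 2, the H3K27 methyltransferase, 5 (41.7%, against 13.0% called over all genes) fell: Phf19, Aebp2, Mtf2, Jarid2 and Suz12. All but Suz12 are accessory subunits. Phf19 was at 93.3 and 98.1 CPM in Pcgf3KO and 74.5 and 78.9 in Pcgf5KO (−0.32 ± 0.06, edgeR adjusted p = 0.000142), and Aebp2 at 87.6 and 81.3 and at 69.6 and 65.9 (−0.32 ± 0.06, edgeR adjusted p = 0.000342). The catalytic subunits Ezh1 and Ezh2 were not called (−0.01 and 0.04), and 2 of the 12 were called lower without Pcgf5KO replicate 2. Among 16 Polycomb-marked developmental regulators 2 rose, Foxd3 among them, and Meis1 fell (median −0.137). The rises numbered 1 without Pcgf5KO replicate 2, and Meis1 was not called without Pcgf3KO replicate 1 or Pcgf5KO replicate 1 (edgeR adjusted p up to 0.3). Of the Hox genes 1 passed the filter, Hoxd13, which was not called.

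Of 20 genes of DNA methylation and heterochromatin 5 rose and 3 fell (median 0.004). The rises numbered 2 without either Pcgf5KO library, and the falls 5 without Pcgf3KO replicate 2. Tet2, a DNA demethylating enzyme, was at 54.7 and 51.2 CPM in Pcgf3KO and 39.8 and 37.0 in Pcgf5KO (−0.46 ± 0.07, edgeR adjusted p = 2.86e-05), and the cofactor Dnmt3l at 633 and 685 and at 554 and 550 (−0.26 ± 0.04, edgeR adjusted p = 0.000162). Aire, on the other strand, overlaps Dnmt3l, so their reads cannot be told apart. Atrx, a chromatin remodeller on the X chromosome, was at 594 and 528 and at 467 and 454 (−0.29 ± 0.05, edgeR adjusted p = 0.000119). The libraries of the groups did not overlap at these 3 genes, as at nearly all genes called lower.

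Imprinted genes were called in both directions, 5 higher and 5 lower among 33 tested (median −0.008). Peg13, a noncoding RNA made from the paternal copy (chr15:72805600-72810324, minus strand), had 1 count in each Pcgf3KO library and 65 and 19 in the Pcgf5KO libraries, with 60 in WT and 0 and 54 in DKO. The ratio of Pcgf5KO to Pcgf3KO counts, scaled to library size, was 53.1 (95% exact interval 14.2 to 445, counting error only). Peg13 was thus near absent from 3 edited libraries, both of Pcgf3KO and DKO replicate 1, and it was not called with 7 libraries (edgeR adjusted p = 0.393). It lies within Trappc9 on the same strand, which was not called (−0.13). Cdkn1c, a cyclin-dependent kinase inhibitor made from the maternal copy, was at 49.7 and 46.5 CPM in Pcgf3KO and 66.6 and 70.9 in Pcgf5KO (0.51 ± 0.06, edgeR adjusted p = 9.38e-07). Phlda2, its maternally expressed neighbour in the same imprinted region, was at 98.9 and 100 and at 140 and 136 (0.48 ± 0.05, edgeR adjusted p = 5.26e-08). Igf2, the paternally expressed growth factor gene, was lower, at 77.5 and 82.7 and at 65.8 and 68.6 (−0.25 ± 0.06, edgeR adjusted p = 0.00309). Peg10, at 562 in both Pcgf3KO libraries and at 434 and 438 CPM in Pcgf5KO, fell by 0.37 on the log2 scale (edgeR adjusted p = 2.92e-07). Sgce, next to Peg10, fell too (−0.55). Igf2 was not called without Pcgf5KO replicate 1 (edgeR adjusted p = 0.0847) nor Sgce without Pcgf5KO replicate 2 (0.165), an omission that left 2 of the 33 called lower.

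Glycolysis genes were mostly higher where called: of 21, 7 rose (Pgk1, Ldha, Pfkm, Gapdh, Pkm, Aldoa and Eno1) and 4 fell (Slc2a3, Pfkp, Pdk1 and Bnip3), with a median of 0.091. Apart from the X-linked Pgk1 the rises were small. Ldha, lactate dehydrogenase, was at 1441 and 1553 CPM in Pcgf3KO and 1793 and 1704 in Pcgf5KO (0.22 ± 0.04, edgeR adjusted p = 0.000235), and Gapdh at 4721 and 4890 and at 5441 and 5416 (0.18 ± 0.03, edgeR adjusted p = 0.000229). Pfkp, the platelet form of phosphofructokinase, was at 108 and 100 and at 85.6 and 80.2 (−0.32 ± 0.05, edgeR adjusted p = 0.000121), the opposite direction to Pfkm. The rises numbered 4 without Pcgf3KO replicate 1 or Pcgf5KO replicate 1 and 11 without Pcgf3KO replicate 2, and the falls 2 without Pcgf5KO replicate 1.

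Of 21 p53 targets 5 rose (Bax, Pmaip1, Aen, Cdkn1a and Ei24) and 3 fell (Gadd45a, Mdm2 and Trp53inp1), with a median of 0.093. Gadd45a, a stress sensor, was at 9.69 and 8.76 CPM in Pcgf3KO and 5.17 and 6.20 in Pcgf5KO (−0.71 ± 0.15, edgeR adjusted p = 0.00166). Without Pcgf5KO replicate 2 none of the 5 rises was called (edgeR adjusted p = 0.0694 for Bax, 0.0584 for Aen and 0.141 for Pmaip1). Mdm2 and Trp53inp1 were called lower only when the library left out was Pcgf3KO replicate 2, so the falls numbered 1 in the other 3 such fits. Among 21 proliferation genes 5 rose and 5 fell (median 0.034), with Mki67 at 248 and 231 CPM in Pcgf3KO and 192 and 182 in Pcgf5KO (−0.36 ± 0.05, edgeR adjusted p = 7.95e-06). Mki67 alone of the 5 was called lower without Pcgf5KO replicate 2. Mcm2, a replication helicase subunit, went the other way, at 464 and 491 and at 587 and 571 (0.28 ± 0.04, edgeR adjusted p = 4.89e-05). Of 8 oncofetal genes, whose products bind RNA or chromatin in fetal cells, Igf2bp3, Hmga1 and Lin28a rose and Igf2bp2 fell. Of 21 interferon and antigen presentation genes Ube2l6, H2-D1 and H2-K1 rose (median 0.114), and the interferon-induced Ifit1 and Oasl2 were not called. The H2 genes were not called without Pcgf5KO replicate 2, and 5 of the 21 were called higher without Pcgf3KO replicate 2.

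The cholesterol synthesis list had 1 rise and 3 falls of 23 (17.4% called), and the YAP target list 1 and 2 of 10 (30%). Fewer than the 13.0% of all genes were called in 2 lists. These were amino acid and ER stress (1 and 1 of 21, 9.52%) and glutathione transferase and metallothionein (1 and 1 of 25, 8%). Without Pcgf5KO replicate 2 there were no calls in the cholesterol and amino acid lists, and 1 fall alone in the YAP list. In the glutathione list, Gstp2, with paralogs that may share its reads, was at 13.3 and 15.2 CPM in Pcgf3KO and 8.84 and 8.59 in Pcgf5KO (−0.70 ± 0.13, edgeR adjusted p = 0.000236). Mt1, a metal-binding metallothionein, was at 134 and 143 and at 169 and 165 (0.27 ± 0.05, edgeR adjusted p = 0.000483). Of 4 Schlafen genes Slfn9 fell, without a call when Pcgf5KO replicate 1 was left out (edgeR adjusted p = 0.0754), and of 2 Serpina3 genes Serpina3m rose, at 15.6 and 17.1 CPM in Pcgf3KO and 23.6 and 23.1 in Pcgf5KO. Of 19 Platr RNAs Platr13, Platr15 and Platr10 rose and the other 16 were not called (median 0.103), with 5 rises without Pcgf3KO replicate 2. Of the clustered protocadherins, adhesion genes of neurons, 16 passed the filter with a median of 0.164, and Pcdhgb4, the largest of them at 1.20 ± 0.48, was not called (edgeR adjusted p = 0.0986).

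Of 27 feeder fibroblast markers listed, 22 passed the filter, 7 rose (Col1a2, Cnn1, Vim, Acta2, Fn1, Thy1 and Col5a1), 15 were not called, and the median was 0.354. DESeq2 called 2 of them higher and the 7-library fit 1, and DESeq2 gave no adjusted p to Col1a2 and Acta2. Their summed level was 916 and 922 CPM in Pcgf3KO, 1235 and 1288 in Pcgf5KO, 1412 in WT and 1376 and 1229 in DKO. Without Fn1 and Vim, which ES cells also express, it was 134 and 147, 171 and 175, 237, and 150 and 182. Col1a2, a fibrillar collagen, was at 2.48 in both Pcgf3KO libraries and at 5.06 and 5.17 CPM in Pcgf5KO (1.04 ± 0.20, edgeR adjusted p = 0.000714). Fn1, fibronectin, was at 730 and 721 and at 978 and 1028 (0.47 ± 0.04, edgeR adjusted p = 7.66e-10). Of the 22, 19 had log2 fold changes above 0 and 3 below it, Col6a3 (−0.35), Pdgfrb and Twist1 (−0.02 each). The 5 markers below the filter, Col3a1, Postn, Twist2, Prrx1 and Fap, had at most 11 counts in any single knockout library. The number of rises called depended on which library was left out. Whether feeder RNA has a part in the rise of Vim, Fn1 or the H2 genes was not tested.

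The X chromosome held 514 genes tested, of which 25 were higher (4.86%) and 57 lower (11.1%) in Pcgf5KO. The largest rise was that of Efhc2, an EF-hand gene of cilia, at 2.38 and 2.09 CPM in Pcgf3KO and 15.4 and 12.2 in Pcgf5KO, 6.19-fold (2.63 ± 0.17, edgeR adjusted p = 9.59e-13). Efhc2 was at 21.4 in WT and 2.27 and 2.15 in DKO, so it was low in all 4 libraries in which Pcgf3 was targeted. Pgk1, phosphoglycerate kinase, was at 385 and 392 CPM in Pcgf3KO and 839 and 824 in Pcgf5KO, 2.14-fold (1.10 ± 0.04, edgeR adjusted p = 1.06e-18). Here Pcgf3KO alone was low, with 643 in WT and 761 and 763 in DKO. Pnma5, a gene of the paraneoplastic antigen family, was at 4.87 and 4.85 and at 11.2 and 11.6 (1.22 ± 0.14, edgeR adjusted p = 3.21e-07). Xlr3a, its neighbour, was at 1.04 and 0.661 and at 4.59 and 4.69 (2.42 ± 0.27, edgeR adjusted p = 1.63e-07), and Xlr3b, a close relative that may share its reads, also rose (0.94 ± 0.32). Itm2a, an integral membrane protein gene, was at 24.1 and 24.7 and at 40.5 and 37.5 (0.68 ± 0.08, edgeR adjusted p = 3.24e-07). Efhc2, Pgk1, Pnma5, Xlr3a and Itm2a were called with 7 libraries, while the kinase gene Pim2 (0.65 ± 0.06) missed that call (edgeR adjusted p = 0.0512).

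Among the X-linked falls, Usp26, a deubiquitinase of testis, was at 100 and 90.6 CPM in Pcgf3KO and 44.5 and 46.0 in Pcgf5KO, 2.11-fold lower (−1.08 ± 0.06, edgeR adjusted p = 7.81e-14). WT (110) was above Pcgf3KO and DKO (49.5 and 51.2) close to Pcgf5KO, so Usp26 was low in the 4 libraries in which Pcgf5 was targeted. AU015836 was at 204 and 199 and at 119 and 115 (−0.79 ± 0.05, edgeR adjusted p = 9.59e-13), with WT at 118. Rhox6, a reproductive homeobox gene of placenta and germ cells, was at 11.3 and 11.1 and at 4.71 and 3.98 (−1.35 ± 0.15, edgeR adjusted p = 1.44e-07). Of 4 Rhox genes tested Rhox6 and Rhox9 fell, Rhox9 with a call in 1 of the 4 fits that left out a library, and Rhox5, the most abundant, did not pass (16.7 and 16.4 against 13.9 and 18.2 CPM). Stard8 (−0.79 ± 0.12) and Nxt2 (−0.75 ± 0.13) were called with 4 libraries only. Xist was at 0.756 to 2.38 CPM in the 4 libraries and, like the Y-linked Kdm5d, Ddx3y, Uty and Eif2s3y, was not called.

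**Figure D5:**
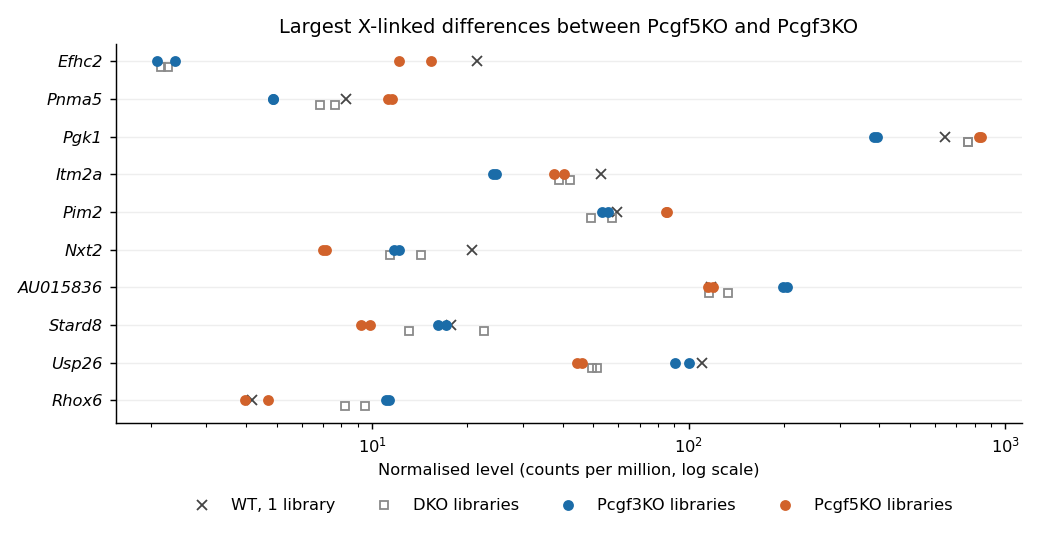
Normalised level in CPM on a log scale (horizontal axis) of the 5 X-linked genes with the largest rises and the 5 with the largest falls under the naming rule. Blue points are Pcgf3KO libraries, orange points Pcgf5KO libraries, crosses WT replicate 2 and open squares DKO libraries; DKO lies with Pcgf3KO for Efhc2 and with Pcgf5KO for Usp26.

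Called genes of 1 direction also lay side by side elsewhere. Taking genes tested in chromosome order, 22 runs of 3 or more neighbours were called in the same direction, with Serping1, Ube2l6 and Smtnl1, and Pnma5, Xlr3a and Xlr3b among them. The longest run had 5 genes, all lower: Snx10, Skap2, Hibadh, Tax1bp1 and Jazf1 on chromosome 6 (chr6:51523901-53068631). Genes that failed the filter on low counts can lie between the members of a run. Skap2, an adaptor protein gene, was at 42.7 and 42.4 CPM in Pcgf3KO and 36.0 and 33.3 in Pcgf5KO (−0.29 ± 0.07, edgeR adjusted p = 0.00752). How many such runs neighbouring genes give by themselves was not tested.

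The single WT library was set beside the called genes as a description, with no replicate check. Among the 859 higher calls that reach the naming rule's level, an average log2 CPM of 2, WT was below both knockouts at 298, between them at 208, within the Pcgf3KO range at 175, above both at 129 and within the Pcgf5KO range at 49. Among the 917 lower calls WT was above both knockouts at 325, between them at 244, within the Pcgf3KO range at 144, below both at 143 and within the Pcgf5KO range at 55. In each direction WT was most often beyond Pcgf3KO on the side away from Pcgf5KO, as at Smtnl1 and Notum among the rises and Krt8 and Dsp among the falls. Rspry1, Kdr and Olig2 are cases of the opposite kind, with WT at or beyond Pcgf5KO.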

How the data were processed

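Poly-A RNA was sequenced with a library kit that does not mark strand, per the labels' protocols. Reads of genes that overlap on opposite strands were therefore counted without a way to separate them. Beyond the genes flagged above, Csnk2b, Pfkp, Phf19, Gapdh, Hmga1, Igf2bp3, Mtf2, Med19, Tmx2 and Zdhhc5 overlap a tested gene on the other strand. The authors deposited 1 table of whole-number read counts per library, by Ensembl gene. The submitters' processing notes list HTSeq 0.6.0, TopHat2 2.0.12 and Cufflinks 2.2.1, and mm10 as the build, without role or order. Of 47069 genes 46488 were matched to a symbol (GENCODE M21). 0 entries named no gene.

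Pcgf5KO was compared with Pcgf3KO in edgeR 4.0.16 (R 4.3.3; TMM, filterByExpr, glmQLFit and glmQLFTest, group as the only term) on the 4 libraries, with 2 residual and a median of 29.7 prior degrees of freedom. The standard error is the log2 fold change divided by the square root of F. Alternatives, 11 in all, added WT replicate 2 and DKO (7 libraries), used RLE scaling, DESeq2 1.42.0, other filters, a replicate block or robust moderation (added after seeing the data), or left out 1 library. The scripts were first tested on simulated data with known changes.

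Genes named are the 15 largest autosomal and 5 largest X-linked rises and falls (mean log2 CPM of at least 2, libraries apart, predicted genes left out), up to 4 members per list with the smallest p, the Pcgf genes, and others said to be chosen after their values were seen. The comparison, the 37 lists and the members were chosen with earlier results of these data known. Results of some genes are not reported here, though counts and medians over lists include them.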

Additional observations from a re-analysis of the deposited data

How the results depend on the processing

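No alternative reversed a called difference among the 4 counts of calls or the 197 named genes. Every alternative takes the difference from the same 4 single knockout libraries or fewer of them. A reversal was therefore unlikely from the outset, and its absence is no separate support. With all 7 complete libraries the autosomal calls fell from 879 higher and 910 lower to 9 and 5, and the X-linked calls from 25 and 57 to 5 and 3. DESeq2 called 409 and 309 autosomal and 7 and 25 X-linked genes. Leaving out 1 library gave 348 to 1347 higher and 381 to 1244 lower autosomal calls, and 10 to 29 higher and 30 to 57 lower X-linked calls. The counts were lowest without Pcgf5KO replicate 2 and highest without Pcgf3KO replicate 2. In these fits the lone library is assumed to vary like the other group, with 1 residual degree of freedom. RLE scaling (915 and 912 autosomal calls), no filter on low counts (827 and 938), a mean count of at least 10 (894 and 931) and robust moderation (946 and 969) kept the counts within 1.5 times.

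Replicate numbers are shared by the groups, but the labels do not say that they pair libraries. The replicate 1 minus replicate 2 differences correlated at −0.0333 between the groups. With the replicate block 1069 higher and 1119 lower autosomal and 27 and 63 X-linked genes were called. Of the 149 named genes that were called, 40 lost the call without at least 1 library. Under the 7-library fit 127 of these 149 lost it, and under DESeq2 14. DESeq2 gave no adjusted p to 70 of the 197 named genes. With 2 libraries a group and as few as 12652616 counts, the difference of Pcdhgb4, a protocadherin of low level, was not called at 1.20 ± 0.48.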
